A study of Lupinus albus with 12 samples.

Results

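The 10 genes described here encode ammonium transporters and the enzymes that turn nitrate and ammonium into amino acids in roots of white lupin (Lupinus albus), a legume. Their protein names in the deposited gene table contain ammonium transporter, glutamine synthetase, glutamate synthase, nitrate reductase or nitrite reductase. The words matched 23 of 33388 genes, and the rule kept the ammonium transporter Lalb_Chr07g0184111, which it names, and the 9 others with the most reads summed over the 12 libraries. Of the 13 matches left out, 3 are other enzymes whose longer names hold the words, namely 2 folylpolyglutamate synthases and 1 arginine biosynthesis protein. The members were chosen by these read sums, which ran from 1027588 for a glutamine synthetase (Lalb_Chr22g0353451) to 53860 for an NADH-dependent glutamate synthase (Lalb_Chr11g0066781) and 41301 for the named transporter. Just outside stood a glutamine synthetase (Lalb_Chr24g0398111) with 37132 reads and an ammonium transporter (Lalb_Chr01g0023211) with 28584. Of the 88822 reads of nitrate reductase (Lalb_Chr08g0241671), each plant at 20 and 80 min gave 6796 to 19322, and each control 255 to 1125. Its place among the members rests on the groups where it is high, so its rise and counts that hold it are a description. All 10 members had enough reads to be tested, as had 22 of the 23 matches.

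Plants of the cultivar Amiga, labelled wildtype, were grown in hydroponic Hoagland solution, and sucrose was added to 10 mM to find transcripts that respond to it as a signal. Root sections that included the tips were taken from untreated control plants at 0 min and from sucrose-treated plants after 20, 40 or 80 min. Each of the 4 groups holds 3 plants, and a library comes from 1 plant. Controls were taken at 0 min only, so length of exposure and time since handling cannot be told apart, and the labels do not give the nitrogen form of the solution.

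Roots take up nitrate and ammonium. Nitrate reductase in the cytosol turns nitrate into nitrite, and nitrite reductase in the plastid turns nitrite into ammonium with electrons from ferredoxin. Glutamine synthetase joins ammonium to glutamate, and glutamate synthase passes the amide nitrogen of glutamine to 2-oxoglutarate, a carbon skeleton drawn from sugar breakdown. Plants have cytosolic and plastid forms of glutamine synthetase, and forms of glutamate synthase that take electrons from ferredoxin or from NADH. In Arabidopsis and tobacco, transcripts of nitrate reductase are known to respond to nitrate, light and sugars.

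Library totals ranged from 35050877 to 105299704 reads, and the 10 members together took 0.227% to 0.445% of them. Both extremes came from plants at 20 min (replicates 1 and 2), while the controls lay between 0.383% and 0.399%. The 3 plants at 20 min differed from each other in several markers. The summed level of 90 genes with names typical of green tissue, of which 71 to 81 had a read in a given library, was 1906, 536 and 1285 CPM (read counts scaled to library size with TMM factors) at 20 min, against 553 to 701 CPM in the controls. For 12 low-oxygen genes the sum was 4042 to 7465 CPM in the controls, and 30361, 1656 and 20331 CPM at 20 min. For 20 genes named as nodulins or leghemoglobin reductase, of which 10 to 14 had a read, it was 7028, 285 and 4254 CPM at 20 min and 649 to 1149 CPM in the controls. Of the root markers only 4 matched, all of them named for the root cap and all with reads in every library, and they summed to 155 to 313 CPM in the controls and 67.0 to 126 CPM at 20 min. The low-oxygen sum lay below every control in all later plants, with 999.6 to 2076 CPM after 40 min and 1911 to 3696 CPM after 80 min. The root cap sum did so too, with 119 to 130 CPM after 40 min and 75.6 to 146 CPM after 80 min. Of its 4 genes only Lalb_Chr08g0238841 lay below all its controls at both times. Lalb_Chr08g0238831 did so after 40 min, Lalb_Chr19g0134411 after 80 min, and Lalb_Chr03g0027271 at neither time. The nodulin sum was 296 to 476 CPM after 40 min, below the controls, and 335 to 821 CPM after 80 min, overlapping them. The green-tissue sum overlapped the controls after 40 min with 341 to 649 CPM and lay below them after 80 min with 452 to 544 CPM. The part of these differences in the results below was not tested. Because whole root sections were sequenced, fewer cells of a type and less RNA per cell cannot be told apart.

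After sucrose, ferredoxin-dependent glutamate synthase stood below every control plant at all 3 times, as did 1 cytosolic glutamine synthetase. Nitrate reductase stood above every control plant at 20 and 80 min, but it became a member through its reads in those groups. The most abundant gene, glutamine synthetase Lalb_Chr22g0353451, stood between 78.1% and 129% of its control mean in all 9 treated plants. None of these differences passed edgeR's test across all genes, while DESeq2 called some of them. Since the named transporter was put into the rule with earlier results of these data known, its values are a description, and counts of called genes cover the other 9. By edgeR's quasi-likelihood test at an adjusted p below 0.05, 0 of the 9 were called at 20 min, where 0.0242% of all 28980 tested genes were. The count was also 0 of 9 at 40 min (0.0897% of all genes) and at 80 min (0.0104%), and 0 of 9 in the test over the 4 times (0.0725%).

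At an unadjusted p below 0.05, edgeR gave 4 of the 9 at 20 min, against 12.6% of all genes, with nitrate reductase higher and both glutamate synthases and glutamine synthetase Lalb_Chr18g0053521 lower. It gave 1 at 40 min, the NADH-dependent glutamate synthase, against 5.99% of all genes, and the same 4 genes at 80 min as at 20 min, against 9.91%. Over the 4 times it gave 2, both glutamate synthases, against 13.4%. DESeq2, a second count test, called 2 of the 9 at 20 min (4.09% of all genes), 1 at 40 min (1.93%), 1 at 80 min (2.97%) and 2 in its test over the 4 times (8.02%). The 3 comparisons with the control share its 3 plants and are not independent of each other. Nitrate reductase is among the 4 genes and the DESeq2 calls at 20 min, though its membership rests on its high groups.

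Counted by plants, 2 of the 9 lay below all controls in all 3 plants at 20 min and 1 lay above, where 10.8% of all genes did so in each direction. At 40 min, 5 of the 9 lay below and 0 above, against 8.35% and 6.9% of all genes. At 80 min, 5 lay below and 1 above, against 9.05% and 8.62%. The median log2 fold change of the 9 was -0.97, -0.65 and -0.66 at 20, 40 and 80 min, against 0.065, 0.081 and 0.12 over all tested genes. These counts describe genes picked for their abundance and names. The 1 gene above at 20 and 80 min was nitrate reductase, a member through its reads in those groups.

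**Figure D1:**
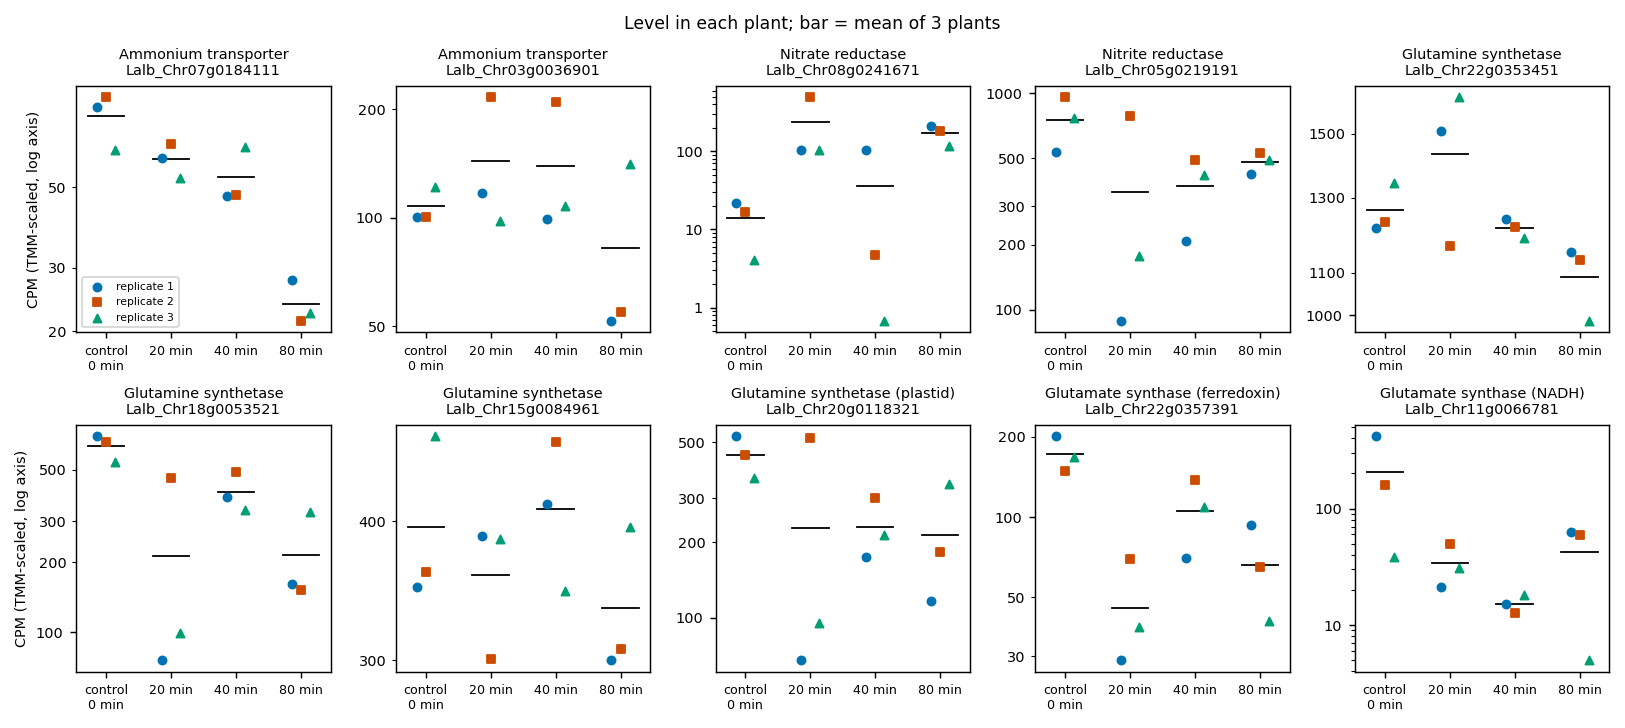
Level of each of the 10 genes in each of the 12 plants, in CPM on a log axis, by time of sucrose exposure; symbols mark the replicate numbers and bars the mean of 3 plants. The transporter Lalb_Chr07g0184111 lies between 21.3 and 27.8 CPM at 80 min, below all other plants. At 20 min replicate 2 differs from replicates 1 and 3 for several genes. For nitrite reductase and the plastid glutamine synthetase it lies within the control range.

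**Figure D2:**
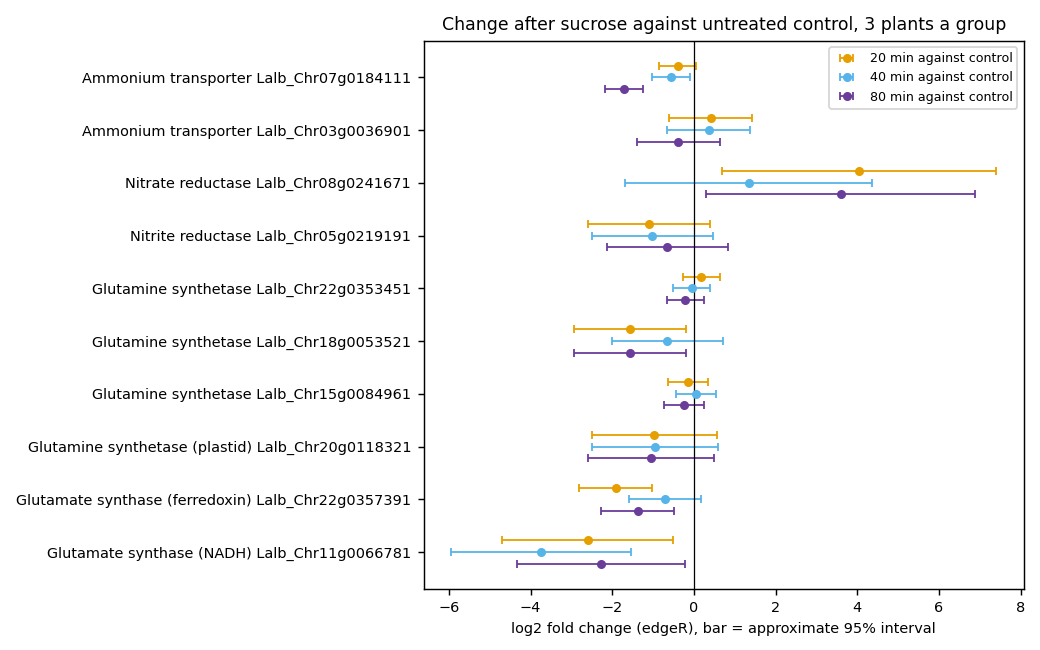
Log2 fold change of each gene after 20, 40 and 80 min of sucrose against the untreated control, with approximate 95% intervals from edgeR, 3 plants in each group. Intervals are widest for nitrate reductase, from 0.68 to 7.41 at 20 min, and narrow for glutamine synthetase Lalb_Chr22g0353451, from -0.26 to 0.63.

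The members at the entry of the pathway are 2 ammonium transporters, which carry ammonium across the cell membrane. The deposited table lists both at the cell membrane, with 483 amino acids for Lalb_Chr07g0184111 and 499 for Lalb_Chr03g0036901. Lalb_Chr07g0184111 stood at 83.5, 88.8 and 63.2 CPM in the controls and at 60.1, 66.0 and 52.9 CPM at 20 min. Its level at 40 min was 47.4, 47.7 and 64.6 CPM, and at 80 min it was 27.8, 21.3 and 22.5 CPM. All 3 plants at 80 min lay below the other 9 plants, whereas the plants at 20 and 40 min overlapped the controls. The group mean was 78.5 ± 13.5 CPM in the controls and 23.9 ± 3.43 CPM at 80 min (SD, n = 3). This is a log2 fold change of -1.72 (SE 0.21), or 3.29-fold lower. The change was -0.40 (SE 0.21) at 20 min and -0.56 (SE 0.21) at 40 min. Between sucrose times the log2 difference of Lalb_Chr07g0184111 was -1.16 (SE 0.21) from 40 to 80 min and -1.32 (SE 0.21) from 20 to 80 min.

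The other transporter, Lalb_Chr03g0036901, had more reads and no such order. It stood at 101, 101 and 122 CPM in the controls, 117, 217 and 98.3 CPM at 20 min, 99.1, 210 and 108 CPM at 40 min, and 51.7, 54.97 and 141 CPM at 80 min. Replicate 2 was high at 20 and 40 min and replicate 3 at 80 min, and every treated group overlapped the controls. The log2 fold changes were 0.42, 0.36 and -0.38, each with SE 0.46 and with adjusted p of 0.742, 0.999 and 0.786 by edgeR. Without replicate 2 the value at 20 min was -0.057, and without replicate 2 at 40 min the value there was -0.095.

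Of the summed FPKM (the authors' length-scaled level) of the 6 ammonium transporter genes in the table, Lalb_Chr07g0184111 held 38.3%, 38.3% and 29.0% in the controls. After 20 min it held 24.3%, 21.4% and 24.3%. After 40 min the shares were 27.4%, 16.9% and 30.5%, and after 80 min they were 26.4%, 20.9% and 11.4%. The share was below all controls at 20 and 80 min and overlapped them at 40 min. The sum itself was 72.2 to 74.3 FPKM in the controls and 37.6, 35.3 and 69.7 FPKM at 80 min.

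Nitrate reductase (Lalb_Chr08g0241671, 894 amino acids), the first enzyme of nitrate assimilation, was the member whose level differed most between plants. It stood at 21.9, 16.8 and 4.08 CPM in the controls and at 103, 497 and 103 CPM at 20 min. The plants at 40 min had 103, 4.77 and 0.671 CPM, and those at 80 min had 214, 184 and 116 CPM. All plants at 20 and 80 min were above all controls, while at 40 min replicate 1 was above them and replicate 3 below. The lowest value, in replicate 3 at 40 min, still rests on 53 reads.

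The mean of nitrate reductase Lalb_Chr08g0241671 was 14.2 ± 9.15 CPM in the controls, 234 ± 228 CPM at 20 min, 36.0 ± 57.7 CPM at 40 min and 171 ± 49.8 CPM at 80 min (SD, n = 3). At 20 min its log2 fold change was 4.04 (SE 1.51; adjusted p = 0.326 by edgeR), and it was 3.59 (SE 1.48; adjusted p = 0.491) at 80 min. With each library left out in turn, the value at 20 min ran from 2.78, without replicate 2 at 20 min, to 4.49. DESeq2 gave an adjusted p of 0.0288 at 20 min, and over all alternatives it ranged from 0.0288 to 0.631. The authors' deposited DESeq2 values come from the same counts. They are a log2 fold change of 4.02 and an adjusted p of 0.0288 at 20 min, and 3.56 and 0.0846 at 80 min. At 40 min the log2 fold change was 1.34 (SE 1.36; adjusted p = 0.999 by edgeR), and it was -2.43 without replicate 1.

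Nitrite reductase (Lalb_Chr05g0219191, 582 amino acids), the next enzyme, lay on the other side of the control. It stood at 533, 962 and 771 CPM in the controls, 88.4, 785 and 178 CPM at 20 min, 208, 492 and 418 CPM at 40 min, and 422, 527 and 489 CPM at 80 min. All plants at 40 and 80 min were below all controls, and so were replicates 1 and 3 at 20 min, while replicate 2 lay within the control range. The log2 fold changes were -1.11 (SE 0.67), -1.02 (SE 0.67) and -0.66 (SE 0.67), with adjusted p of 0.507, 0.999 and 0.742 by edgeR.

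The excess of nitrite over nitrate reductase in FPKM put both enzymes on a scale per length. In the controls nitrite reductase exceeded nitrate reductase 34.0-fold, 80.1-fold and 264-fold. At 20 min the excess was 1.202-fold, 2.201-fold and 2.41-fold, and at 80 min 2.76-fold, 3.999-fold and 5.87-fold. In the 6 plants of these groups the excess was below that of every control. The plants at 40 min ran from within the range at 80 min to beyond the highest control, with an excess of 2.83-fold, 144-fold and 879-fold.

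**Figure D3:**
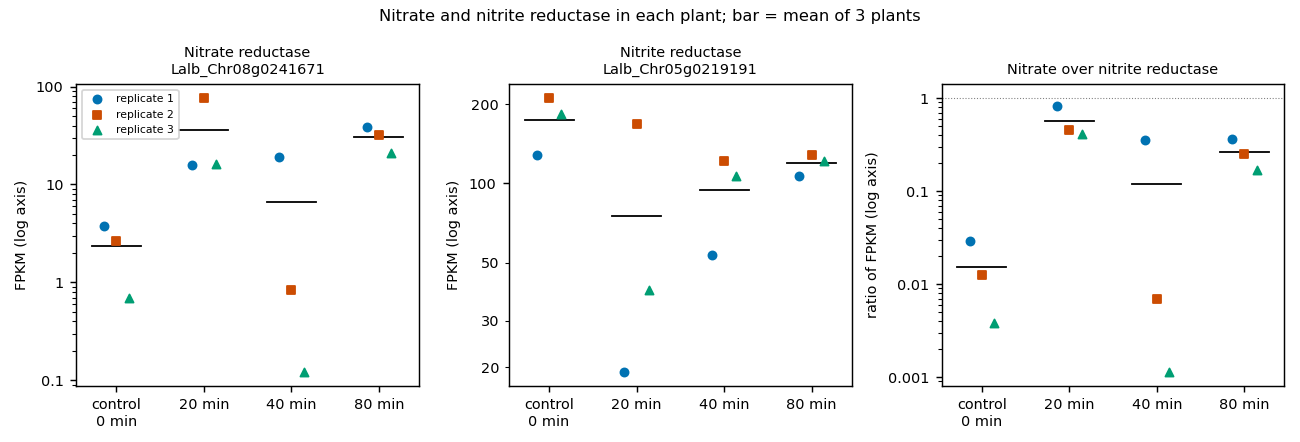
FPKM of nitrate reductase and nitrite reductase and the ratio of the first to the second in each of the 12 plants, all on log axes; bars are means of 3 plants and the dotted line marks equal levels. The ratio is 0.0038 to 0.0294 in the controls and 0.170 to 0.832 in the plants at 20 and 80 min. At 40 min it runs from 0.0011, below the controls, to 0.354.

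Glutamine synthetase, which fixes ammonium into glutamine, has 4 members. The table lists Lalb_Chr18g0053521 and Lalb_Chr15g0084961 in the cytoplasm, with 356 amino acids each, and Lalb_Chr20g0118321 in the plastid, with 432. It gives no location for Lalb_Chr22g0353451, which has 389. Lalb_Chr22g0353451 was the most abundant member per length, with 513 ± 57.2 FPKM (SD, n = 12 libraries) and a rank at percentile 99.9 of all genes in mean FPKM.

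Lalb_Chr22g0353451 stood at 1216, 1231 and 1344 CPM in the controls, 1510, 1167 and 1628 CPM at 20 min, 1240, 1217 and 1187 CPM at 40 min, and 1153, 1131 and 987 CPM at 80 min. The plants at 80 min were all below the controls by a small margin. The log2 fold changes were 0.18 (95% interval -0.26 to 0.63), -0.06 (-0.50 to 0.39) and -0.21 (-0.66 to 0.23), with adjusted p of 0.740, 0.999 and 0.722 by edgeR. Its cytosolic relative Lalb_Chr15g0084961 also stayed close to its controls, which lay at 349, 360 and 477 CPM. It stood at 301 to 388 CPM at 20 min, 346 to 471 CPM at 40 min and 300 to 395 CPM at 80 min, with log2 fold changes of -0.14, 0.05 and -0.24 (SE 0.22 each; adjusted p = 0.823, 0.999 and 0.707 by edgeR). Every treated group of this gene overlapped the controls.

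The other cytosolic gene, Lalb_Chr18g0053521, stood at 697, 655 and 542 CPM in the controls. It stood at 75.7, 463 and 98.9 CPM at 20 min, 383, 491 and 336 CPM at 40 min, and 161, 153 and 330 CPM at 80 min. All 9 treated plants were below all controls, and the gap was widest in replicates 1 and 3 at 20 min. The log2 fold change was -1.57 (SE 0.62; adjusted p = 0.344 by edgeR) at 20 min, -0.65 (SE 0.61; adjusted p = 0.999) at 40 min and -1.56 (SE 0.62; adjusted p = 0.485) at 80 min.

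The plastid gene, Lalb_Chr20g0118321, showed the same division among the plants at 20 min. It stood at 529, 447 and 360 CPM in the controls, 67.6, 520 and 95.3 CPM at 20 min, 175, 300.2 and 214 CPM at 40 min, and 117, 183 and 342 CPM at 80 min. All plants at 40 and 80 min were below the controls, but replicate 3 at 80 min by less than the spread between the controls. The log2 fold changes were -0.97, -0.95 and -1.06 (SE 0.69 each), with adjusted p of 0.576, 0.999 and 0.617 by edgeR.

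The make-up of glutamine synthetase transcripts differed between plants while the sum differed less. Sums of FPKM were not rescaled between libraries. The FPKM of all genes together ran from 308692 in replicate 2 at 20 min to 411401 in replicate 3 at 40 min. Over the 9 glutamine synthetase genes in the table the summed FPKM was 1059 to 1211 in the controls, 797 to 949 at 20 min, 967 to 1099 at 40 min and 786 to 908 at 80 min. Lalb_Chr22g0353451 held 41.8% to 48.2% of it in the controls. The plants at 20 min had shares of 71.0%, 45.5% and 71.2%, those at 40 min 53.8%, 47.5% and 54.5%, and those at 80 min 62.9%, 60.9% and 46.9%. Lalb_Chr18g0053521 held 22.1% to 27.3% in the controls, and 4.05%, 20.5% and 4.93% at 20 min. At 80 min its share was 10.0%, 9.36% and 17.9%. In every treated plant the share of Lalb_Chr18g0053521 was below that of all controls.

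**Figure D4:**
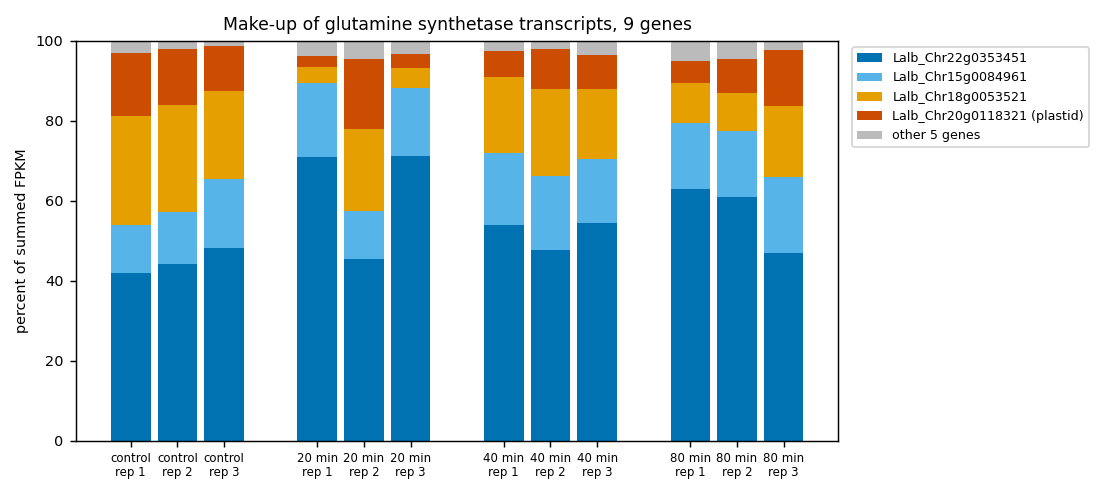
Share of each glutamine synthetase gene in the summed FPKM of the 9 genes, as stacked bars from 0 to 100%, 1 bar for each plant. Replicates 1 and 3 at 20 min hold 71.0% and 71.2% Lalb_Chr22g0353451 and under 5% each of Lalb_Chr18g0053521 and the plastid gene Lalb_Chr20g0118321, unlike replicate 2 and the controls.

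Glutamate synthase, which closes the cycle by making glutamate from glutamine, has 2 members. The ferredoxin-dependent form (Lalb_Chr22g0357391, listed with 1623 amino acids) stood at 201, 148 and 168 CPM in the controls and at 29.0, 69.5 and 38.6 CPM at 20 min. Its values were 70.3, 138 and 109 CPM at 40 min, and 93.1, 65.0 and 40.7 CPM at 80 min. All 9 treated plants were below all controls, replicate 2 at 20 min included. The mean was 173 ± 26.7 CPM in the controls and 45.7 ± 21.2 CPM at 20 min, 106 ± 34.0 CPM at 40 min and 66.3 ± 26.2 CPM at 80 min (SD, n = 3).

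The log2 fold change of Lalb_Chr22g0357391 was -1.92 (SE 0.40), or 3.77-fold lower, at 20 min, with an adjusted p of 0.162 by edgeR. It was -0.70 (SE 0.39; adjusted p = 0.941 by edgeR) at 40 min and -1.38 (SE 0.40; adjusted p = 0.341 by edgeR) at 80 min. DESeq2 gave 0.00104 at 20 min and 0.0483 at 80 min. Over all alternatives the adjusted p ranged from 0.00104 to 0.504 at 20 min and from 0.0483 to 0.691 at 80 min. The authors' deposited table also gives 0.00104 and 0.0483, from the same counts.

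The NADH-dependent form (Lalb_Chr11g0066781, 2198 amino acids) stood at 417, 160 and 38.3 CPM in the controls, so the controls alone spanned 10.9-fold. It stood at 21.1, 49.5 and 30.9 CPM at 20 min, 15.1, 12.6 and 18.1 CPM at 40 min, and 63.1, 59.4 and 4.97 CPM at 80 min. The plants at 40 min were all below the controls and close to each other, while those at 20 and 80 min overlapped control replicate 3. The log2 fold change was -2.60 (SE 0.94; adjusted p = 0.314 by edgeR) at 20 min, -3.75 (SE 0.99; adjusted p = 0.346) at 40 min and -2.27 (SE 0.93; adjusted p = 0.487) at 80 min. DESeq2 gave an adjusted p of 0.00145 for Lalb_Chr11g0066781 at 40 min, and over all alternatives it ranged from 0.00145 to 0.920. All 3 values rest in part on control replicate 1, the highest control, and without it they were -1.56, -2.70 and -1.22. With each library left out in turn they ran from -3.17 to -1.56 at 20 min, from -4.29 to -2.70 at 40 min and from -2.85 to -1.22 at 80 min.

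Summed over the 3 glutamate synthase genes in the table, the FPKM was 57.0, 27.2 and 21.3 in the controls. After 20 min it was 4.44, 10.47 and 6.28, after 40 min 9.54, 16.6 and 14.3, and after 80 min 16.3, 12.3 and 5.03. Each of the 9 treated plants was below the lowest control.

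At 20 min, 3 members divided the plants alike. Nitrite reductase, glutamine synthetase Lalb_Chr18g0053521 and the plastid glutamine synthetase stood at 11.7% to 23.5% of their control means in replicates 1 and 3. In replicate 2 they stood at 104%, 73.3% and 117%. Alcohol dehydrogenase 1 (Lalb_Chr23g0271341), an enzyme of fermentation, was at 23824, 902 and 15682 CPM in the 3 plants in order, while the controls ranged from 1833 to 3539 CPM. The opposition held at 20 min only. Alcohol dehydrogenase 1 lay at 486 to 991 CPM after 40 min and 721 to 1601 CPM after 80 min, below all controls. The 3 members were below all their controls at these times too. The ferredoxin-dependent glutamate synthase did not divide the plants at 20 min in this way, with 16.8%, 40.3% and 22.4% of its control mean. Replicate 2 at 20 min was known from earlier results of these data to differ from the other plants of its group. Without it, edgeR called 4 of the 9 members lower at 20 min, against 1.59% of all genes in that direction. For each of the 4 the plant left out was the nearest of its group to the controls. Leaving it out favours such calls, so they are a description and no separate support.

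The 4 genes and their log2 fold changes without that plant were ferredoxin-dependent glutamate synthase (-2.40, adjusted p = 0.0224), glutamine synthetase Lalb_Chr18g0053521 (-2.91, adjusted p = 0.0119), nitrite reductase (-2.55, adjusted p = 0.0273) and the plastid glutamine synthetase (-2.50, adjusted p = 0.0299), all by edgeR. Over all alternatives the adjusted p at 20 min ranged from 0.00356 to 0.712 for Lalb_Chr18g0053521, from 0.0208 to 0.840 for nitrite reductase Lalb_Chr05g0219191 and from 0.00861 to 0.888 for Lalb_Chr20g0118321.

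**Figure D5:**
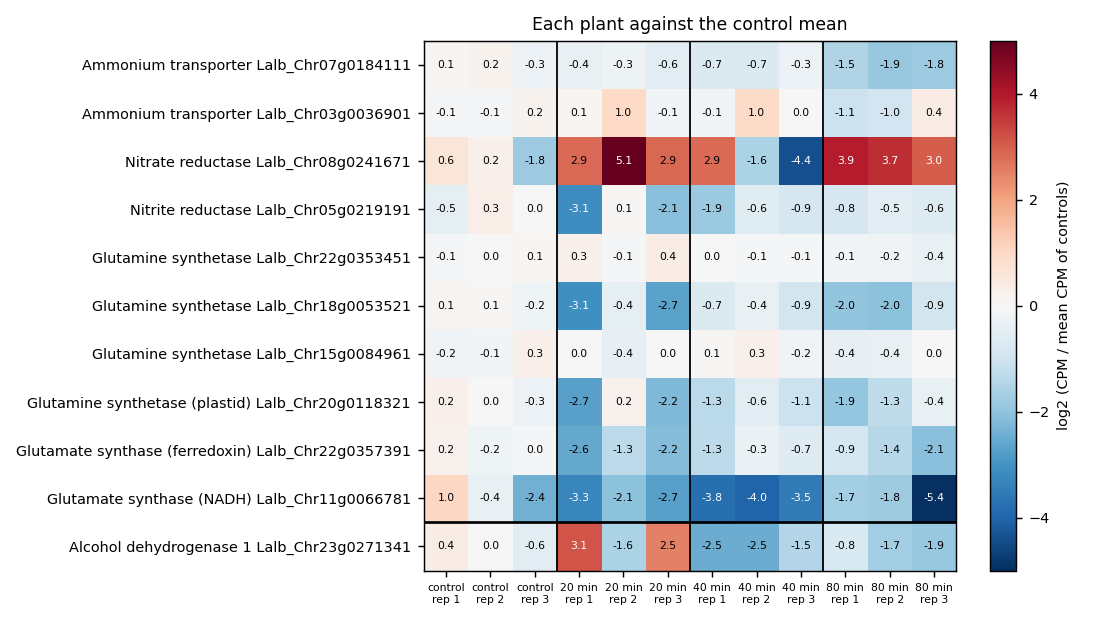
Log2 ratio of each plant's CPM to the mean of the 3 controls for the 10 genes, with alcohol dehydrogenase 1 in the bottom row; red is above and blue below the control mean. Replicates 1 and 3 at 20 min have low nitrite reductase, Lalb_Chr18g0053521 and Lalb_Chr20g0118321 together with high alcohol dehydrogenase 1. Replicate 2 has alcohol dehydrogenase 1 below the control mean. Its nitrite reductase and Lalb_Chr20g0118321 are at 104% and 117% of the control mean, and its Lalb_Chr18g0053521 is at 73.3%, below all controls.

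Between sucrose times, which share no control plants, edgeR called 0 of the 9 from 20 to 40 min, from 40 to 80 min and from 20 to 80 min, and 0% of all genes in each. At an unadjusted p below 0.05 it gave 1, 0 and 0 of the 9, against 14.2%, 4.51% and 17.3% of all genes, and DESeq2 called 0 of the 9 (4.99%, 0.86% and 7.15% of all genes). The 1 gene was ferredoxin-dependent glutamate synthase, with a log2 difference of 1.21 (SE 0.40; adjusted p = 0.257 by edgeR) from 20 to 40 min, where the plants did not overlap. Nitrate reductase was lower in all plants at 40 min than in those at 20 min and higher again in all plants at 80 min. For Lalb_Chr08g0241671 the first of these gaps was narrow, since replicate 1 had 102.6 CPM at 40 min and replicate 1 at 20 min had 102.7 CPM. Its log2 differences were -2.70 (SE 1.43; adjusted p = 0.417 by edgeR) and 2.25 (SE 1.401; adjusted p = 1). Counted by plants, 2 of the 9 were lower and 1 higher at 40 than at 20 min (8.93% and 9.52% of all genes), and 2 lower and 1 higher at 80 than at 40 min (4.34% and 5.08%). From 20 to 80 min 1 was lower and 0 higher (7.85% and 7.97%).

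Per length, the order of mean FPKM over the 12 libraries was glutamine synthetase Lalb_Chr22g0353451 (513), Lalb_Chr18g0053521 (171), Lalb_Chr15g0084961 (155), nitrite reductase (116), plastid glutamine synthetase (98.7), transporter Lalb_Chr03g0036901 (37.0), nitrate reductase (18.9), transporter Lalb_Chr07g0184111 (17.9), ferredoxin-dependent (10.6) and NADH-dependent (6.12) glutamate synthase. The first place, the plastid glutamine synthetase and Lalb_Chr07g0184111 each exceeded the next gene by more than the larger SD of the pair over the libraries. The other neighbours differed by less than that. In the controls alone nitrate reductase was the lowest member, at 2.37 ± 1.55 FPKM (SD, n = 3).

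The genes whose log2 CPM ran most like that of Lalb_Chr07g0184111 over the 12 libraries, among 21489 genes with a mean of at least 2 CPM, are given as a description. They share its libraries and groups. The closest were an uncharacterized protein (Lalb_Chr05g0224531, Pearson r 0.94), a putative xanthine, uracil or vitamin C permease (Lalb_Chr23g0272291, 0.94), a WD40-like protein (Lalb_Chr23g0278281, 0.93), a putative regulatory subunit of a cAMP-dependent protein kinase (Lalb_Chr13g0293001, 0.92) and an uncharacterized protein (Lalb_Chr25g0283251, 0.91). The permease, for example, had 93.3 ± 16.0 CPM in the controls and 45.8 ± 4.15 CPM at 80 min (SD, n = 3). The nearest member was Lalb_Chr22g0353451, with r of 0.48, and nitrate reductase was the only one with a negative r, at -0.44.

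Around these genes, 9 lists of other nitrogen genes held 299 genes, of which 250 were tested. They covered nitrate and amino acid transporters, amide and transamination enzymes, glutamate breakdown, ureides and urea, carbon skeletons, regulators, reductant and cofactors, and the other matches of the words used here. EdgeR called 0 of the 250 at any time or between times. At an unadjusted p below 0.05 it gave 14 higher and 17 lower after 20 min, 5 higher and 13 lower after 40 min, and 8 higher and 28 lower after 80 min. These are 12.4%, 7.2% and 14.4% of the listed genes tested, where 12.6%, 5.99% and 9.91% of all genes passed. DESeq2 called 2 higher and 7 lower after 20 min, 1 higher and 2 lower after 40 min, and 2 higher and 9 lower after 80 min. That is 3.6%, 1.2% and 4.51% of the listed genes it tested, against 4.09%, 1.93% and 2.97% of all genes.

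The most abundant nitrate transporters, which bring nitrate into root cells, were both named high-affinity. Lalb_Chr08g0236821 stood at 909, 717 and 771 CPM in the controls, 12.2, 579 and 63.8 CPM at 20 min, 335, 709 and 230 CPM at 40 min, and 155, 194 and 566 CPM at 80 min. Replicates 1 and 3 at 20 min were the lowest of all plants, and replicate 2 was close to the controls, the same division as in nitrite reductase. The log2 fold changes of Lalb_Chr08g0236821 were -1.87, -0.91 and -1.39, with adjusted p of 0.491, 0.999 and 0.663 by edgeR. Lalb_Chr07g0183011 stood at 386 to 441 CPM in the controls, 80.7, 367 and 103 CPM at 20 min and 79.5, 104.8 and 253 CPM at 80 min.

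Asparagine is a main carrier of nitrogen in many legumes, and the most abundant genes of its metabolism lay on opposite sides of the control at 80 min. Asparagine synthetase (Lalb_Chr15g0083001), which uses glutamine to make asparagine, stood at 943, 841 and 564 CPM in the controls and at 73.1, 99.5 and 251 CPM at 80 min, with a log2 fold change of -2.47 (SE 0.75; adjusted p = 0.368 by edgeR). A putative asparaginase (Lalb_Chr22g0354871), which releases ammonium from asparagine, stood at 737, 601 and 470 CPM in the controls and at 1496, 1189 and 766 CPM at 80 min. Its log2 fold change was 0.93 (SE 0.32; adjusted p = 0.426 by edgeR). In both genes all 3 plants at 80 min lay outside the control range. Before that, asparagine synthetase stood at 106, 601 and 205 CPM after 20 min and at 227, 737 and 219 CPM after 40 min, and asparaginase at 589, 727 and 580 CPM after 20 min and at 1136, 624 and 1112 CPM after 40 min. Both genes overlapped their controls at these times.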

How the data were processed

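RNA of 12 single plants was sequenced from stranded mRNA libraries on a single flow cell lane, per the labels' protocols. The authors deposited whole-number read counts per gene and library, without normalization, per the file headers. They also deposited FPKM per gene and library, and DESeq2 log2 fold changes with p-values and adjusted p-values for each time against control, per the file headers. The submitters' processing notes list bcl2fastq 2.20, FastQC, Trimmomatic 0.32, HISAT2, StringTie and DESeq2. How strand and multiply matching reads were counted, and on which genome build, is information not given in the sources used here, so counts of similar family members are uncertain to that extent. Names, protein lengths and locations are those of the deposited table, and 33388 of 33388 identifiers matched NCBI's annotation of assembly CNRS_Lalb_1.0. The genome build behind the counts is not given, and coordinates are left out.

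Counts of all 33388 genes were filtered with filterByExpr, which kept 28980, scaled with TMM and fitted by group over 12 libraries with edgeR 4.0.16 in R 4.3.3 (robust quasi-likelihood F test, 8 residual degrees of freedom). Adjusted p-values are Benjamini-Hochberg values over all genes tested, and calls are below 0.05. The SE is the absolute log2 fold change over the root of F, and the 95% intervals use the t distribution. DESeq2 1.42.0 was run as an alternative. The script was tested on simulated counts. Library totals ranged from 35050877 to 105299704 reads, which carry no molecular identifiers. Levels of different genes are compared in FPKM only, and sums of FPKM were not rescaled between libraries. The members and the gene lists were chosen with earlier results of these data known. Named genes were all members, the 5 genes most like Lalb_Chr07g0184111, and of each other list the 2 genes most abundant in FPKM together with any called. Alcohol dehydrogenase 1 is named as a marker beside the members that move with it, and Lalb_Chr17g0346051 was chosen after its values were seen. The root cap genes are named as the parts of their marker sum.

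Alternatives were RLE size factors, no low-count filter, the replicate number as a block, a fit of the 2 groups compared, FPKM in place of CPM, each library left out in turn, and 20 min replicate 2 and 80 min replicate 3 left out together.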

Additional observations from a re-analysis of the deposited data

How the results depend on the processing

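EdgeR called 0 of the 9 members besides Lalb_Chr07g0184111 in each of the 6 comparisons and in the test over the 4 times, and the count was also 0 in each with RLE size factors, with no low-count filter and, where it was run, in a fit of the 2 groups compared. Deviations of plants with the same replicate number correlated between -0.223 and 0.162 (median 0.013, 18 pairs). Those of plants with different numbers correlated between -0.213 and 0.275 (median -0.0049, 36 pairs). No pairing by number was detected, but such correlations cannot show whether plants with the same number shared handling. With the replicate block the count was 0 in all. DESeq2 called 2 at 20 min, 1 at 40 min, 1 at 80 min and 2 over the 4 times, and 0 between sucrose times. With each library left out in turn, the count ran from 0 to 4 at 20 min, from 0 to 1 between 20 and 40 min, from 0 to 2 over the 4 times, and was 0 to 0 in the others. The highest counts all came without 20 min replicate 2, where 3.43%, 4.91% and 3.37% of all genes were called in these 3 tests. Without 20 min replicate 2 and 80 min replicate 3 together, 4 were called at 20 min, 0 at 40 min, 2 at 80 min, 3 between 20 and 40 min, 1 between 40 and 80 min, 3 between 20 and 80 min and 5 over the 4 times, but 8.16%, 0.846%, 5.54%, 10.7%, 2.27%, 17.8% and 15.2% of all genes were called too. The cause of these higher counts was not tested. In the 80 min group, replicate 3 was nearest to the controls for Lalb_Chr18g0053521 (330 CPM) and Lalb_Chr20g0118321 (342 CPM). It was the farthest for Lalb_Chr22g0357391 (40.7 CPM). Leaving it out favours calls of the first 2 genes, so these counts are a description and no separate support.

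Some log2 fold changes changed sign. For Lalb_Chr03g0036901 the log2 fold change at 20 min was -0.057 without 20 min replicate 2 (range with each library left out -0.057 to 0.63) and -0.096 without that plant and 80 min replicate 3, and at 40 min it was -0.095 without 40 min replicate 2 (range -0.095 to 0.53). For Lalb_Chr15g0084961 at 40 min it was -0.026 and -0.0065 without control replicates 1 and 2, and -0.091 without 40 min replicate 2 (range -0.091 to 0.17). For nitrate reductase Lalb_Chr08g0241671 at 40 min it was -2.43 without 40 min replicate 1 (range -2.43 to 1.92). With FPKM in place of CPM, 29 of 30 ratios of group means moved by less than the replicate SD. For the named transporter at 80 min the log2 fold change lay between -1.94 and -1.62 with each library left out in turn. Since that gene was put into the rule with earlier results known, this range is a description only.

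The lowest value of a member in a library was 53 reads, and the part of depth in the errors was not tested. The other gene lists were not refitted under every alternative.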

Other observations

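Glutamate, the product of glutamate synthase, is also broken down in roots. Glutamate dehydrogenase (Lalb_Chr02g0157111), which can release ammonium from glutamate, stood at 57.6, 115 and 94.8 CPM in the controls, 26.9, 34.4 and 74.3 CPM at 20 min, 47.5, 39.8 and 102 CPM at 40 min, and 8.10, 10.3 and 14.7 CPM at 80 min. All 3 plants at 80 min were below the other 9 plants, and the log2 fold change there was -3.01 (SE 0.51; adjusted p = 0.154 by edgeR). Glutamate decarboxylase (Lalb_Chr18g0053681), which makes the amino acid GABA, stood at 506, 452 and 612 CPM in the controls, 1219, 611 and 1068 CPM at 20 min, 381, 619 and 493 CPM at 40 min, and 290, 322 and 374 CPM at 80 min. Replicates 1 and 3 at 20 min were above all controls, the plants at 40 min overlapped them, and all plants at 80 min were below them. Its log2 fold changes were 0.88 (SE 0.29; adjusted p = 0.285 by edgeR) at 20 min and -0.67 (SE 0.29; adjusted p = 0.496) at 80 min.

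Of the 13 genes matched by the words but not kept, 12 were tested and edgeR called 0 at any time. A glutamine synthetase listed in the cytoplasm (Lalb_Chr17g0346051), singled out after its values were seen, stood at 34.1, 17.7 and 2.34 CPM in the controls and at 69.5, 71.2 and 42.4 CPM at 20 min. It stood at 19.7, 10.8 and 18.8 CPM at 40 min and at 5.65, 3.58 and 12.7 CPM at 80 min. The 3 plants at 20 min were above all other plants, the opposite side of the control from the cytosolic member Lalb_Chr18g0053521. The log2 fold change of Lalb_Chr17g0346051 at 20 min was 1.76 (SE 0.77; adjusted p = 0.389 by edgeR).

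The most abundant genes of the other lists are given by their means in the controls and after 80 min (SD, n = 3). Their adjusted p after 80 min lay between 0.420 and 0.948 by edgeR. Uricase (Lalb_Chr19g0128951), which oxidizes urate on the way to ureides, had 99.2 ± 5.22 and 71.6 ± 5.06 CPM, and the putative urease accessory protein UreG (Lalb_Chr07g0188621) 68.5 ± 3.16 and 51.6 ± 8.39 CPM. Of the enzymes for carbon skeletons, NADP isocitrate dehydrogenase (Lalb_Chr04g0251491), which makes 2-oxoglutarate, had 306 ± 24.7 and 321 ± 121 CPM. Phosphoenolpyruvate carboxylase (Lalb_Chr01g0006821), which makes oxaloacetate, had 596 ± 92.3 and 481 ± 118 CPM. Of the regulators, the putative PII protein (Lalb_Chr04g0260061) had 22.9 ± 1.14 and 32.8 ± 14.9 CPM and a putative Nin-like factor (Lalb_Chr24g0396651) 21.1 ± 1.09 and 18.2 ± 2.30 CPM. The ferredoxin-NADP reductases, which exchange electrons between NADPH and ferredoxin, had 317 ± 12.47 and 213 ± 34.98 CPM (Lalb_Chr15g0088761) and 98.6 ± 5.16 and 77.6 ± 8.09 CPM (Lalb_Chr18g0057971). The putative amino acid transporters had 435 ± 61.4 and 178 ± 95.3 CPM (Lalb_Chr05g0212051) and 176 ± 7.37 and 103 ± 77.9 CPM (Lalb_Chr04g0258301). Among the matches not kept, glutamine synthetase Lalb_Chr24g0398111 had 39.9 ± 12.1 and 59.9 ± 29.4 CPM and ammonium transporter Lalb_Chr01g0023211 had 32.8 ± 3.65 and 25.8 ± 0.209 CPM.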
